A study of Mus musculus with 4 samples.

Results

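Hmgcs1, Idi1, Fdps, Fdft1, Sqle, Lss, Cyp51 and Dhcr7 encode 8 enzymes of cholesterol synthesis, and their transcripts were compared between deprived and non-deprived mouse visual cortex. Every probe set whose only gene symbol in the platform's annotation was one of these 8 was taken, which gave 11 of the 12488 probe sets on each array. Fdps had 4 of them and each other gene had 1. Of the 11, 8 probe sets of 7 genes were bright enough to test, and these were 8 of the 7458 tested. Lss and 2 of the Fdps probe sets were too dim.

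The cortex came from wild-type C57Bl6 mice, 5 in all, that were reared in the dark from birth to postnatal day 42. One eye was then removed, the animals spent 4 days in a normal cycle of light and dark, and they were killed on postnatal day 46. Deprived cortex lies opposite the removed eye and non-deprived cortex on the same side as it, so both kinds of tissue share the dark rearing, the surgery, the genotype and the age. There were 2 arrays of each kind, from pooled tissue, and how many mice went into each array is not stated in the sources used here. Nothing in the labels says that the pools were separate animals, so p-values measure only the spread between these 4 arrays. The samples are whole tissue, in which fewer cells of a type and less RNA per cell cannot be told apart.

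Cholesterol is built from acetyl-CoA by way of mevalonate, the isoprenoids and squalene, which is closed into a ring and trimmed to the finished sterol. The brain makes its own cholesterol because lipoproteins of the blood do not cross into it, and oligodendrocytes and astrocytes are its main producers. When sterols run low in the membrane of the endoplasmic reticulum, the transcription factor SREBP-2 is released and switches on most genes of the pathway together, usually with the help of NF-Y and Sp1. In mice most fibres of an eye cross to the opposite hemisphere, so removing an eye takes the main visual input from the opposite cortex.

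RefSeq promoter windows (GRCm38.p6) were at hand for 5 of the 8 genes, Hmgcs1, Idi1, Lss, Cyp51 and Dhcr7. Because SREBP-2, NF-Y and Sp1 are known to act on this pathway, the 250 bases before each start site were searched on both strands for the sterol element TCACNCCAC, the NF-Y box CCAAT and the Sp1 box GGGCGG. The sterol element was found once, in Hmgcs1, and it was present in 1.05% of all 32851 windows of that length. A looser form, CACNCCAC, which lies inside the longer one, gave the same single match and was present in 5.29% of windows. CCAAT and GGGCGG were each found in a window of all 5 genes, against 33.8% and 32.7% of all windows, or 37.5% and 35.4% of genes counted over all their windows. A match is only a description of letters, and the absence of one says nothing about the factor. The 4 sequences that follow are the windows of Hmgcs1, with its sterol element, of Idi1, which had the largest estimate among the tested members, of Cyp51, a late enzyme, and of Dhcr7, the last enzyme, whose estimate had the opposite sign. Each runs 5′ to 3′ on the gene's strand and ends at the base before the start site, and capitals mark the matches. Dhcr7 had 3 windows for different starts, of which the one farthest downstream is shown.
Hmgcs1, chr13:119690101-119690350, plus strand: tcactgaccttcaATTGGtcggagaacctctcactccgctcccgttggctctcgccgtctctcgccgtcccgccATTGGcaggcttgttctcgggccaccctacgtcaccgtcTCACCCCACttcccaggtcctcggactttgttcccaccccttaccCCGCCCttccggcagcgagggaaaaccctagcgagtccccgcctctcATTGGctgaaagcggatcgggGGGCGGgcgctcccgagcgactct
Idi1, chr13:8885356-8885605, plus strand: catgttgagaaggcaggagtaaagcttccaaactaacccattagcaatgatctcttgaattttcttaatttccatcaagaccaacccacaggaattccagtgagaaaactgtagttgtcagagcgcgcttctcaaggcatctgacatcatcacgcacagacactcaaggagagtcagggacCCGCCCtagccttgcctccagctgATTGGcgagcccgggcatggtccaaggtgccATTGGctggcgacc
Cyp51, chr5:4104698-4104947, minus strand: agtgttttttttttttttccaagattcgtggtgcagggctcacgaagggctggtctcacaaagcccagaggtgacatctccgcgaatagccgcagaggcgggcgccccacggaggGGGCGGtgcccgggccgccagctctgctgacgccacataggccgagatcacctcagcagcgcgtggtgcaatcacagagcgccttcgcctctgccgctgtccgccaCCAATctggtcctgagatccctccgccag
Dhcr7, chr7:143829964-143830213, plus strand: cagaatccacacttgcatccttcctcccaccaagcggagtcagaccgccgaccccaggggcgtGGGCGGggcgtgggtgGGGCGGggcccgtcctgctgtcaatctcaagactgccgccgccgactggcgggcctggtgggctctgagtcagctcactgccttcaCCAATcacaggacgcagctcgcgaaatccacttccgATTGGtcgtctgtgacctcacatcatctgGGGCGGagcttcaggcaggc

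None of the 8 tested probe sets passed an adjusted p of 0.05 in limma between deprived and non-deprived cortex. Idi1, the isomerase of the isoprenoid stage, had the largest estimate, 1.36-fold lower in deprived cortex, and the brighter probe set of Fdps was 1.20-fold lower. On these 2 probe sets both deprived arrays lay below both non-deprived arrays, and on the other 6 the groups overlapped. By gene, each represented by its brightest tested probe set, 5 of 7 estimates were lower and 2 higher, with a median log2 difference of -0.22. The median over all 5649 tested genes was 0.006, with 2781 lower and 2868 higher.

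These counts were read against all tested probe sets. At an adjusted p under 0.05 the members gave 0 of 8, and 0.107% of all tested probe sets passed. At an unadjusted p under 0.05 the members again gave 0 in either direction, against 3.66% of all probe sets lower and 1.77% higher. Non-overlapping arrays were common, with 17.1% of all probe sets lower on both deprived arrays and 15.1% higher. The members gave 2 of 8 lower and 0 higher, so with so few probe sets their share is near this background. When the arrays were scaled to a common median the 2 became 0, and Dhcr7 was higher on both deprived arrays. After quantile normalization the 2 were as before, and Dhcr7 was again higher.

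**Figure D1:**
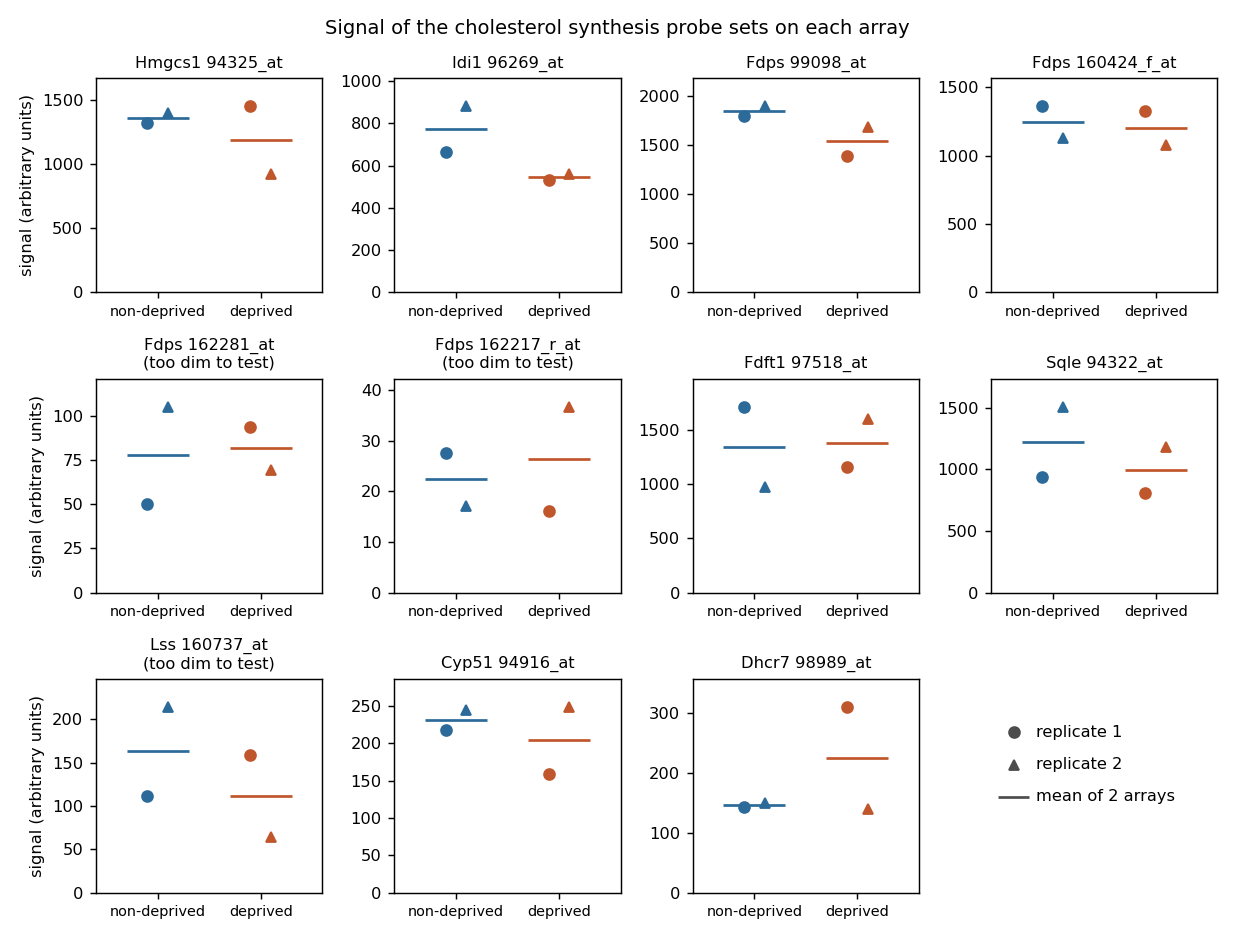
Signal (arbitrary units, linear axes from 0) of the 11 probe sets on the 4 arrays, with circles for replicate 1, triangles for replicate 2 and a bar for the mean of 2 arrays. Both deprived points lie under both non-deprived points for Idi1 and for Fdps 99098_at, and in Dhcr7 a single deprived array stands at 310.4 while the other 3 arrays are between 140.3 and 149.9.

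Hmgcs1 encodes the cytosolic synthase that joins acetoacetyl-CoA and acetyl-CoA to HMG-CoA, the step before mevalonate. The deprived arrays read 1451 (array 1) and 919 (array 2), and the non-deprived arrays 1318 (array 1) and 1399.7 (array 2). Deprived array 1 was the highest of the 4 and deprived array 2 the lowest, so the groups overlapped and the non-deprived arrays lay between. The group means were 1185 ± 376 and 1359 ± 57.9 (SD, n = 2 per group). The log2 difference was -0.22 ± 0.22 (SE), with an adjusted p of 0.999 in limma, and its 95% interval allowed a deprived level of 0.615 to 1.20 times the non-deprived one. Without deprived array 2 the estimate turned to 0.091, and without deprived array 1 it was -0.53.

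Idi1 converts isopentenyl diphosphate into dimethylallyl diphosphate, the pair of building blocks of all isoprenoids. In the same order, the deprived arrays read 534 and 559 and the non-deprived arrays 664 and 881. Both deprived arrays were lower than both non-deprived arrays, and the deprived arrays lay close together while the non-deprived ones were far apart. The means were 547 ± 17.6 and 773 ± 153 (SD, n = 2 per group). The log2 difference was -0.44 ± 0.23 (SE), with an unadjusted p of 0.079 and an adjusted p of 0.954 in limma. The interval ran from 0.518 to 1.04 times the non-deprived level. With any 1 array left out the estimate was negative, between -0.26 and -0.63.

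Fdps makes farnesyl diphosphate, where the routes to cholesterol, to prenylated proteins and to dolichol part. Its brighter probe set 99098_at read 1391 and 1685 with deprivation, against 1799 and 1894 without. The arrays did not overlap, with means of 1538 ± 208 and 1847 ± 66.9 (SD, n = 2 per group). The log2 difference was -0.26 ± 0.18 (SE, adjusted p = 0.993 in limma), with an interval from 0.639 to 1.09 times. Without any 1 array it stayed negative, from -0.13 to -0.39.

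The other tested Fdps probe set, 160424_f_at, did not repeat the separation. It read 1327 and 1076 with deprivation, against 1361 and 1129 without. The replicate 1 arrays were the higher in both groups, and the log2 difference was -0.05 ± 0.19 (SE, adjusted p = 0.999 in limma). The letter f in its name marks, in this maker's naming, probes that can match several related transcripts, so it may not read Fdps alone. The 2 dim Fdps probe sets, 162281_at and 162217_r_at, had signals from 50.2 to 105 and from 16.1 to 36.8, with overlapping groups. The 4 probe sets of the gene thus held 1 with separated arrays and 3 without.

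Fdft1 encodes squalene synthase, which joins a pair of farnesyl diphosphates and commits them to sterols. The deprived signals were 1163 and 1605, the non-deprived ones 1719.5 and 976. The highest and the lowest array were both non-deprived, with means of 1384 ± 313 and 1348 ± 526 (SD, n = 2 per group). The log2 difference was 0.07 ± 0.25 (SE, adjusted p = 0.999 in limma), and the interval ran from 0.714 to 1.55 times. Leaving out an array moved the estimate between -0.32 and 0.46, so its sign rests on the choice of arrays.

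Sqle encodes squalene epoxidase, an enzyme that uses oxygen and limits the flow from squalene to the ring. The deprived arrays read 806 and 1185, the non-deprived arrays 942 and 1510.1. In each group the replicate 2 array was the higher, and within each replicate number the deprived array was the lower. The means were 995 ± 268 and 1226 ± 402 (SD, n = 2 per group), with a log2 difference of -0.27 ± 0.25 (SE) and an adjusted p of 0.999 in limma. With the replicate number as a block the SE was 0.17 and the adjusted p 0.704. The interval of the unblocked fit ran from 0.565 to 1.21 times, and without non-deprived array 2 the estimate was 0.051.

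Lss, the cyclase that folds oxidosqualene into lanosterol, missed the minimum mean signal of 142.9 by a little, at 137, and was not tested. It read 159 and 64.6 with deprivation, against 112 and 214 without. Deprived array 1 lay between the non-deprived arrays, so the groups overlapped.

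Cyp51 encodes the cytochrome P450 that removes a methyl group from lanosterol. The deprived signals were 159.5 and 249, the non-deprived ones 218 and 245, with the lowest and the highest value both deprived. The log2 difference was -0.16 ± 0.42 (SE, adjusted p = 0.999 in limma), and at this low signal the interval was wide, from 0.474 to 1.69 times. Without deprived array 1 the estimate was 0.086.

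Dhcr7 encodes the reductase that turns 7-dehydrocholesterol into cholesterol. The deprived arrays read 310.4 and 140.3, the non-deprived arrays 143 and 149.9. Deprived array 1 stood alone above the other 3 arrays, which agreed closely. The log2 difference of 0.40 ± 0.50 (SE, adjusted p = 0.999 in limma) therefore came from that array, and without it the estimate was -0.043. The interval ran from 0.620 to 2.81 times, the widest among the tested members.

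**Figure D2:**
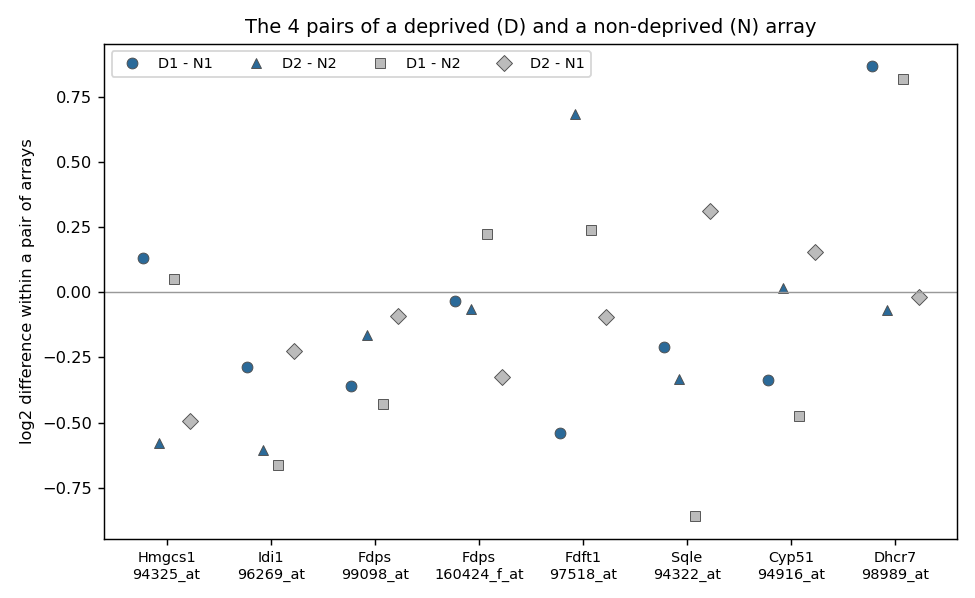
Log2 difference of each tested probe set in the 4 pairs of a deprived (D) and a non-deprived (N) array, blue for pairs with the same replicate number and grey for crossed pairs. All 4 points lie below 0 for Idi1 and Fdps 99098_at, and on both sides of 0 for the other 6 probe sets.

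The design text sets each deprived array against the non-deprived arrays in same-numbered and in crossed pairs, and the members were followed through all 4. The median log2 difference over the 7 genes was below 0 in every pair, at -0.29 and -0.16 in the pairs of replicate 1 and of replicate 2. It was -0.43 for deprived array 1 against non-deprived array 2, and -0.09 for deprived array 2 against non-deprived array 1. The 4 pairs share arrays and are not independent. The median hid members that moved in opposite ways: Fdft1 gave -0.54 in the pair of replicate 1 and 0.68 in that of replicate 2, and Hmgcs1 gave 0.13 and -0.58. Without deprived array 1 the median was -0.043, and without deprived array 2 it was -0.39, so its size rests on which deprived array is used.

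No array was low for all members. Relative to each gene's own mean, deprived array 1 was the lowest array for Fdps, Idi1, Sqle and Cyp51 and the highest for Hmgcs1 and Dhcr7. Deprived array 2 was the lowest for Hmgcs1, at -0.42 on the log2 scale, and for Dhcr7, at -0.24. Non-deprived array 2 was the highest for Fdps, Idi1 and Sqle and the lowest for Fdft1, at -0.43. The 7 genes thus shared no common order of the 4 arrays.

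The other enzymes of the route, with Ggps1 of a side branch counted among them, gave no probe set past the threshold either. Of 15 further genes on the list, 10 had a probe set of their own and 8 could be tested, by 12 probe sets. By the brightest probe set 4 genes were lower and 4 higher, with a median log2 difference of -0.10, which turned to 0.045 without non-deprived array 2. Ggps1, which lies on the branch to protein prenylation and not on the route to cholesterol, was among the higher ones, at 0.42. Over all 12 probe sets 8 were lower and 4 higher, with a median of -0.19. None passed an adjusted p of 0.05 in limma, and 1 was lower at an unadjusted p under 0.05, where 3.66% of all tested probe sets were. On 4 of the 12 probe sets both deprived arrays were below both non-deprived ones, and on 1 they were above, against 17.1% and 15.1% of all tested probe sets.

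The probe set lower at an unadjusted p under 0.05 was 92437_at of Tm7sf2, a sterol reductase that acts after Cyp51. It read 106 and 95.7 with deprivation, against 269 and 368 without. The log2 difference was -1.22 ± 0.46 (SE), with an adjusted p of 0.748 in limma. The brighter Tm7sf2 probe set, 95383_at, was the one with both deprived arrays above, with 945 and 787 against 773 and 475 and a log2 difference of 0.47 ± 0.25 (adjusted p = 0.970). The probe sets of this gene had non-overlapping arrays in opposite directions. Where the probes of each lie on the transcript was not analysed here.

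Mvk, the kinase that phosphorylates mevalonate, read 693 and 505 with deprivation at 95633_r_at, against 928 and 633 without, a log2 difference of -0.34 ± 0.25 (SE). Its other probe set, 95632_f_at, was too dim to test. There both deprived arrays were the higher, with 47.0 and 54.4 against 28.6 and 28.4. Mvd, the decarboxylase that follows, gave 154 and 348 against 87.7 and 308, a log2 difference of 0.34 ± 0.54, with both replicate 2 arrays the higher. Ggps1, which extends farnesyl diphosphate for protein prenylation, gave 0.42 ± 0.39 and, at a dimmer probe set, -0.60 ± 0.35. Among the demethylation enzymes downstream of Cyp51, Msmo1 gave 434 and 375 against 560.0 and 473, with a log2 difference of -0.31 ± 0.26. Nsdhl was lower at each of its 3 probe sets, by -0.50 ± 0.27, -0.12 ± 0.26 and -0.12 ± 0.45, and only the brightest of these had non-overlapping arrays. The isomerase Ebp gave -0.26 ± 0.46, and Lbr, a nuclear envelope protein with sterol reductase activity, 0.06 ± 0.42. The adjusted p of these probe sets in limma lay between 0.965 and 0.999. Hsd17b7 and Sc5d were too dim to test.

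**Figure D3:**
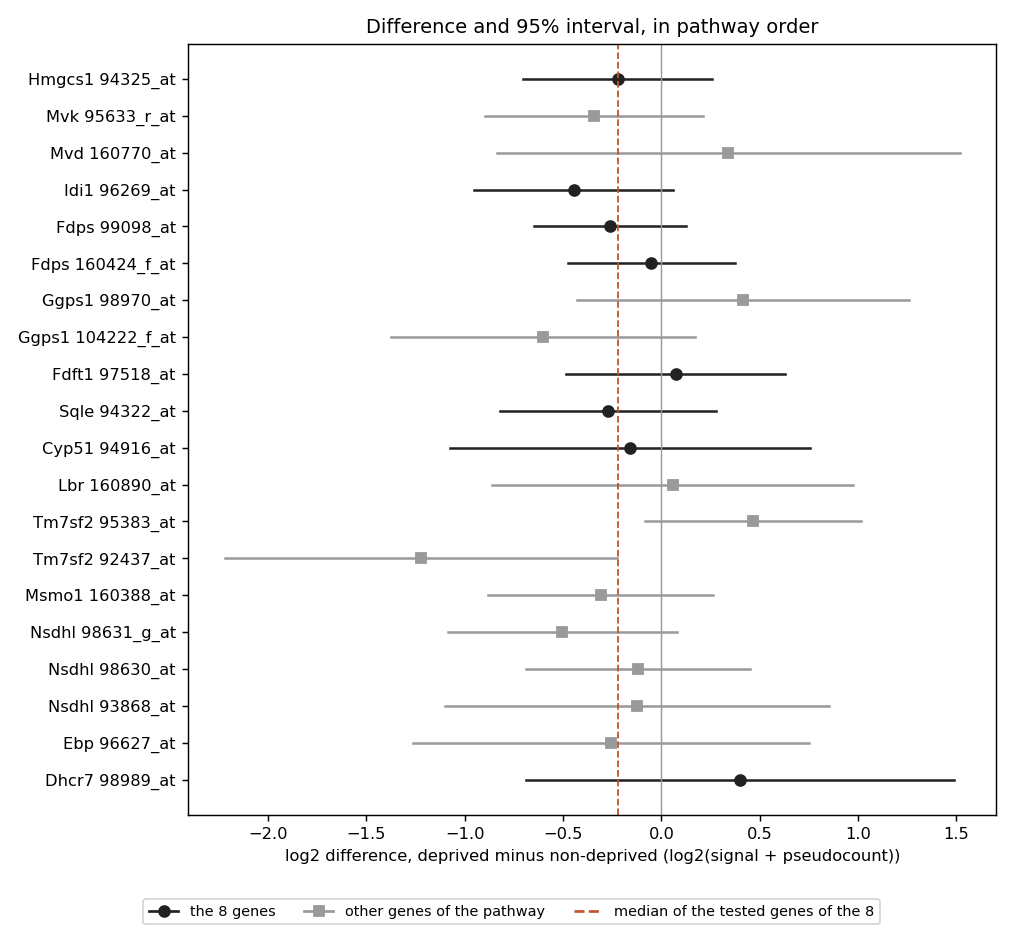
Log2 difference between deprived and non-deprived cortex with its 95% interval from limma, for the 8 tested probe sets of the 8 genes (black circles) and 12 of other pathway enzymes (grey squares), from the earliest step at the top to the last at the bottom. Ggps1, of the branch to protein prenylation, is placed after Fdps. Every black interval crosses 0, the dashed line marks the members' median of -0.22, and of the grey intervals only that of Tm7sf2 92437_at ends short of 0.

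Genes that sense sterols or move cholesterol were set beside the members. Srebf1, the gene of the SREBP-1 proteins, read 1051 and 1275 with deprivation, against 1029.6 and 1196 without, a log2 difference of 0.06 ± 0.19 (SE). Mbtps1, the protease that makes the first cleavage of SREBPs, gave -0.28 ± 0.22, and Insig1 was too dim to test. Of 5 tested genes of cholesterol uptake and release from lysosomes, 1 was lower and 4 higher, with a median of 0.07, which was -0.077 without deprived array 2 and -0.056 without non-deprived array 1. The lipoprotein receptor Lrp1 and its chaperone Lrpap1 gave -0.14 ± 0.18 and 0.04 ± 0.19. Of 7 genes of cholesterol efflux and turnover, 2 were lower and 5 higher, with a median of 0.17, which was -0.022 without non-deprived array 2. Apoe, the main lipoprotein component that astrocytes secrete, gave 0.17 ± 0.23, and Clu, another secreted apolipoprotein, 0.07 ± 0.17 at its brighter probe set. At the other Clu probe set, 161294_f_at, the log2 difference was 0.27 ± 0.17 and the arrays did not overlap. Both deprived arrays were above both non-deprived ones on 1 of 5 uptake and 1 of 8 efflux probe sets, and below on 0. Over all tested probe sets these shares were 15.1% and 17.1%. None of the genes of these 3 lists passed in limma, and 0 did at an unadjusted p under 0.05, where the adjusted p ran from 0.987 to 0.999.

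Fatty acid synthesis, which SREBP-1 drives, had a median of 0.008 over 8 tested genes, 4 lower and 4 higher. Scd2, the main stearoyl-CoA desaturase of brain, read 7451 and 9072 with deprivation, against 8135 and 7227 without, a log2 difference of 0.10 ± 0.19 (SE) at its brighter probe set. Scd1, a related desaturase, was lower at an unadjusted p under 0.05 at 94057_g_at alone, with 1194 and 855 against 1739.8 and 1815. That log2 difference was -0.78 ± 0.20 with an adjusted p of 0.336 in limma, or 0.0747 with the replicate block, and passed without deprived array 1 (adjusted p = 0.0132). Its other 2 tested probe sets gave 0.07 ± 0.17 and -0.15 ± 0.57.

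**Figure D4:**
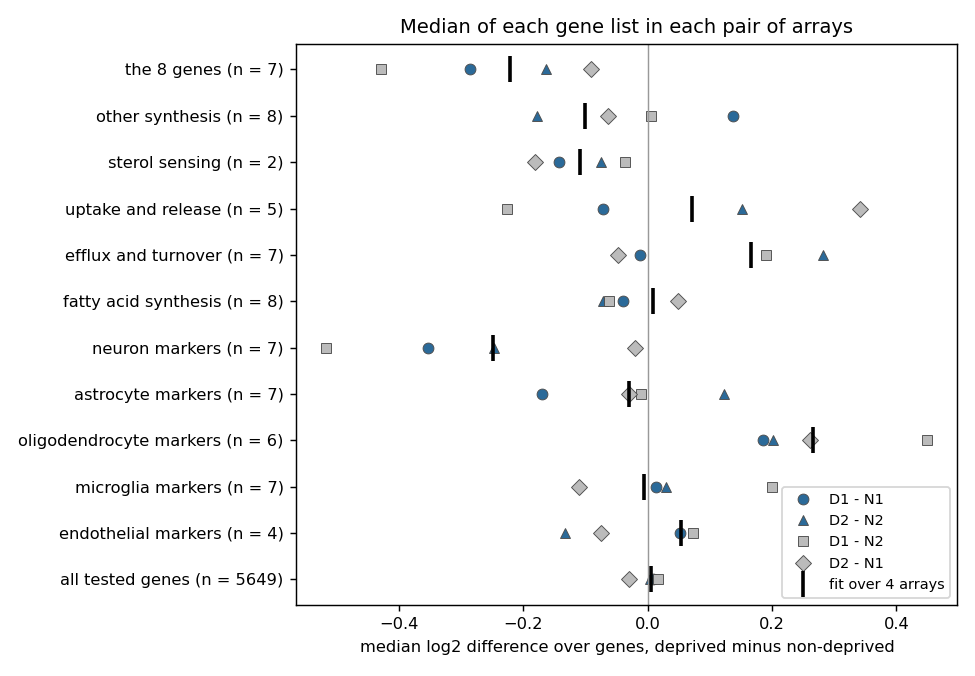
Median log2 difference over the tested genes of each list, each by its brightest probe set, in the 4 pairs of a deprived (D) and a non-deprived (N) array (blue for the same replicate number, grey for crossed) and in the fit over all arrays (black bar), with n the number of genes. The members lie below 0 in all 4 pairs, as do sterol sensing, which is 2 genes, and neuron markers, while oligodendrocyte markers lie above 0 in all 4.

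Quality and cell type markers were as follows. The arrays had median signals from 189.9 to 246, and deprived array 1 correlated least with the rest, at a mean r of 0.91. For actin the 5′ probe set divided by the 3′ one, a ratio that falls as RNA degrades, averaged 0.504 ± 0.0568 with deprivation and 0.635 ± 0.0039 without (SD, n = 2 per group). For Gapdh it averaged 0.717 ± 0.0399 and 0.971 ± 0.136, and both ratios were lower on both deprived arrays. For the transferrin receptor it was 0.372 ± 0.145 and 0.173 ± 0.137, with overlapping arrays. For oligodendrocytes, 6 of 9 markers were tested, with a signal summed over the brightest probe set per gene of 14435 and 13402 on the deprived and 12107 and 11152 on the non-deprived arrays. By these probe sets the sum was the higher on both deprived arrays, and 5 of the 6 genes were higher, with a median of 0.27. Over all 11 tested probe sets of these markers 5 were higher and 6 lower, with a median of -0.0035, and the sums overlapped, at 18139.9 and 16575 with deprivation and 16631 and 15679 without. For astrocytes 7 of 9 were tested, with sums over the brightest probe sets from 14513 to 16373 with deprivation and from 15098 to 16291 without, and 5 lower. Snap25, a synaptic protein gene of neurons, read between 15284 and 20865. For neurons 7 of 8 were tested, with sums from 35933 to 43790 and from 42919 to 46628, 6 lower and a median of -0.25. Over single arrays left out that median ran from -0.088, without deprived array 1, to -0.38, without non-deprived array 1, and it was -0.17 over all 10 probe sets. The part of RNA quality and cell makeup in the members' values was not tested. Ttr, a choroid plexus marker too dim to test, had a signal of 258 on deprived array 1 and at most 67.0 on the others. All 6 choroid plexus probe sets, tested or too dim, read highest on deprived array 1. At the tested ones Folr1 read 298 there and 292 on non-deprived array 2, and Aqp1 388 there and 301 on non-deprived array 1. Their sum was 686 on deprived array 1 and 117 on deprived array 2, against 389.6 and 339 on the non-deprived arrays. The median of these 2 genes was -0.84 without deprived array 1 and 0.91 without deprived array 2.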

How the data were processed

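RNA of 4 visual cortex samples, about 10 µg each per the labels' protocols, was read on single-colour Affymetrix arrays. The authors deposited MAS5 signals, intensities on a linear scale, per the submitters' processing notes; their version, detection calls and scaling target are not stated there. On each array the 2% trimmed mean was 500.3 or 500.4. Symbols came from the platform's annotation (1 symbol for 10855 of 12488 probe sets), updated through RefSeq for 10839. Arrays were scaled to the same trimmed mean, 60.6 (the 20th percentile of mean signals) was added, and log2 was taken, which understates changes of dim probe sets. The 66 controls and probe sets below the 40th percentile, a mean signal of 142.9, were left out.

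limma 3.58.1 (R 4.3.3; lmFit, eBayes with trend, two-sided) compared deprived with non-deprived over 7458 probe sets with Benjamini-Hochberg adjustment, and was tested on simulated data. It had 2 residual and 11.6 total degrees of freedom. An exact permutation test of 2 arrays against 2 cannot go below p = 0.333. Same-numbered arrays were read as paired, mainly from the design text's mention of cross-animal comparisons, and their deviations correlated at r = 0.27. The main fit nevertheless had no replicate block, which was used as an alternative. The members and gene lists were chosen with earlier results of these data known. Named were all probe sets of the members, of the other synthesis enzymes and of sterol sensing, and in each further list the 2 brightest genes and those at an unadjusted p under 0.05, plus the 5 genes with the most similar profile. Ttr was named outside this rule. The number of arrays limits the precision. Alternatives changed the scaling, pseudocount, filter, variance trend, block, threshold and arrays.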

Additional observations from a re-analysis of the deposited data

How the results depend on the processing

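The count of 0 member probe sets past the threshold, and that of 0 for the other pathway enzymes, held in every alternative run. With the replicate block, which the pairing of the arrays allows, both counts were 0 as well, the lowest adjusted p in limma being 0.548 and 0.335. The block changed no call of a named probe set. It lowered unadjusted p in limma from 0.079 to 0.052 for Idi1, and from 0.084 to 0.039 for Nsdhl 98631_g_at, which was lower. For Tm7sf2 95383_at, which was higher, it went from 0.089 to 0.037. Of all 7458 tested probe sets, 690 had an unadjusted p under 0.05 with the block and 405 without. Over the alternatives the lowest adjusted p of a member was 0.368, for Hmgcs1 without deprived array 1. The count of 2 member probe sets with both deprived arrays lower became 0 with a common median and ran from 3 to 5 with an array left out, where fewer arrays had to agree. The count of 0 higher became 1 with quantile normalization and with a common median, and ran from 0 to 2 with an array left out. The members' median of -0.22 was negative in every alternative, from -0.043 to -0.39 with an array left out. That of the other enzymes was 0.0046 over 10 genes when no filter was set and -0.33 over 4 genes when it was set at the 60th percentile, and ran from -0.17 to 0.045 with an array left out. For 8 member probe sets, 86 values under alternatives stayed on their side of the threshold with the same sign and 8 turned sign, each of these with an array left out: the ranges were -0.19 to 0.094 for Fdps 160424_f_at, -0.60 to 0.051 for Sqle, -0.53 to 0.091 for Hmgcs1, -0.41 to 0.086 for Cyp51, -0.32 to 0.46 for Fdft1 and -0.043 to 0.84 for Dhcr7. Cyp51 and Dhcr7 could not be fitted with the filter at the 60th percentile. Other named probe sets that turned sign with an array left out ran from -0.32 to 1.00 for Mvd, -0.066 to 0.18 for Lbr, -0.074 to 0.19 for Srebf1, -0.46 to 0.21 for Nsdhl 93868_at, -0.55 to 0.035 for Ebp, -0.40 to 0.16 for Nsdhl 98630_at, -0.014 to 0.85 for Ggps1, -0.31 to 0.023 for Lrp1, -0.17 to 0.25 for Lrpap1, -0.022 to 0.35 for Apoe, -0.022 to 0.17 for Clu, and from -0.041 to 0.24 for Scd2, -0.066 to 0.20 for Scd1 94056_at, -0.28 to 0.053 for Tubb3, -0.25 to 0.15 for Aldoc, -0.013 to 0.31 for Gja1, -0.21 to 0.047 for C1qa, -0.23 to 0.030 for Cldn5, -0.20 to 0.91 for Flt1, -0.60 to 1.18 for Aqp1, -1.09 to 0.64 for Folr1, -0.65 to 0.81 for Hba-a1 and -0.0050 to 0.28 for Hbb-b2. Over all 48 named probe sets, 524 values kept call and sign, 3 newly passed and 37 turned sign. Over all tested probe sets there were 8 calls in limma, 40 with the replicate block, 12 with no filter, 3 with a common median, 1 with quantile normalization, 0 with no variance trend (390 at an unadjusted p under 0.05) and 5 to 90 with an array left out. Low mean signals limit what could be seen for Cyp51 (218), Dhcr7 (186) and Lss (137), beside the filter's 142.9 and the pseudocount of 60.6.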

Other observations

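By the distance between log2 values centred on each gene's mean over the 4 arrays, the genes outside the lists with a profile most like the members' mean were Maea, Atp5j, Clptm1, Aanat and Agpat5, at distances from 0.028 to 0.039 among 5288 genes compared. The mean profile itself was shallow, with -0.083 and -0.044 on the deprived and 0.022 and 0.11 on the non-deprived arrays, and 4 arrays cannot single out a gene.

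Some cell type markers gave different values at different probe sets, and none passed an adjusted p of 0.05 in limma over all 4 arrays, while 6 of 50 probe sets did at an unadjusted p under 0.05. Of these 5 were lower and 1 higher, against 3.66% and 1.77% of all tested probe sets. Mobp, a myelin protein gene, gave 0.47 ± 0.17 (SE) at its brightest probe set and -0.59 ± 0.19 and -0.64 ± 0.26 at the next ones, while Mbp gave 0.14 ± 0.18 at its brighter one. Csf1r, the growth factor receptor of microglia, gave 0.10 ± 0.19 and -0.83 ± 0.30, and the complement genes C1qc and C1qa gave -0.32 ± 0.20 and -0.08 ± 0.19. Slc1a2, a glutamate transporter of astrocytes, gave -0.997 ± 0.33 and passed without deprived array 1 (-1.41, adjusted p = 0.0245), while Aldoc and Gja1 gave -0.05 ± 0.20 and 0.15 ± 0.17. Nefl, a neurofilament gene, gave -0.68 ± 0.21, Snap25 -0.25 ± 0.23 and Tubb3 -0.11 ± 0.20. Cldn5 and Flt1 of endothelium gave -0.10 ± 0.31 and 0.35 ± 0.40, and Aqp1 and Folr1 of choroid plexus 0.29 ± 0.72 and -0.22 ± 0.68. Summed over tested markers, each by its brightest probe set, microglia (7 of 8) ran from 5175 to 5354 with deprivation and from 5312 to 5716 without. Endothelium (4 of 8) ran from 901 to 1215 and from 972 to 980.5, choroid plexus (2 of 6) from 117 to 686 and from 339 to 389.6, and blood (3 of 4) from 3356 to 8473 and from 4259 to 5823, so the groups overlapped in each. The globin genes Hba-a1 and Hbb-b2 gave 0.08 ± 0.35 and 0.14 ± 0.23, and Hba-a1 passed without deprived array 1 (0.81, adjusted p = 0.0265).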
